A study of Mus musculus with 8 samples.

Results

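The genes described here are 38 genes of blood vessel endothelium and of angiogenesis, the growth of new vessels. They were chosen by name, with earlier results of these data known. Of these genes, 37 were among the 16593 genes measured and Cldn5 was not analysed here. They were followed in tibialis anterior muscles, from the front of the lower leg, of C57BL/6 mice (male, 8 weeks old). A spermine oxidase plasmid had been introduced into 4 of these muscles and a control plasmid into the other 4, and all were taken 7 days later, to learn which mRNAs respond to extra spermine oxidase. Both groups therefore carry the transfection itself, and no untransfected muscle was analysed here. The labels name neither the control plasmid's insert nor the promoter that drives spermine oxidase, and they say that muscles of both legs were taken without telling which came from the same mouse, so a p-value here speaks only of sample-to-sample spread, part of which may be technical. Each muscle was read on 1 Illumina bead array, in which beads carry probes for transcripts. All values are the deposited log2 signals, every difference is spermine oxidase minus control in log2 units, means carry their SD (n = 4), and differences carry limma's standard error.

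Endothelial cells line every vessel and are joined by adhesion proteins such as those encoded by Pecam1 and Cdh5. Their growth is steered by vascular endothelial growth factors (VEGFs), which act on the receptors encoded by Kdr and Flt1, and vessels are kept stable by angiopoietins, which act on the receptor encoded by Tek. In skeletal muscle a dense capillary bed runs between the fibres, and fibres themselves make VEGF. Spermine oxidase, the product of Smox, oxidises spermine, with spermidine, hydrogen peroxide and an aldehyde as products. In whole muscle RNA, more endothelial cells and more RNA per endothelial cell cannot be told apart.

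The arrays had a median signal of 8.33, reached 15.29 and correlated with one another at 0.975 to 0.997 across the 25697 probes. Signals have a floor not far below that median, so a difference of a dim gene understates the change of its mRNA. Precision is limited by there being 8 arrays. Smox averaged 11.94 ± 0.47 in spermine oxidase muscles and 10.78 ± 0.43 in control muscles without overlap, at an adjusted p = 0.233. The muscle with the most Smox was spermine oxidase muscle 1, at 12.58, and the one with the least was control muscle 4, at 10.17. Spermine oxidase muscle 1 was the highest of the 8 muscles for 21 of the 37 vessel genes, and control muscle 4 was the lowest for 11, though its mean over the genes, 9.76, was close to those of control muscles 1 and 3. Results are therefore also given without both, a setting chosen after seeing the data. Where spermine oxidase muscle 1 and control muscle 4 hold the opposite extremes of a gene, leaving both out shrinks its difference by itself.

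Most of the vessel genes were somewhat higher after spermine oxidase, and the differences were small. Since the genes were chosen with earlier results of these data known, the counts below describe them and are no independent support. Of the 37 genes, 33 had a higher mean in spermine oxidase muscles, where 49.2% of all genes did, and the median difference was 0.11, against -0.00064 over all genes. With an unadjusted p under 0.05 in limma, 9 were higher (24.3%, where 6.33% of all genes were) and 0 were lower (4.72% of all genes). For 6 of the 37 the groups did not overlap, all with spermine oxidase higher (16.2%, where 3.66% of all genes did so), and for 0 did they separate the other way (2.51% of all genes). All 9 were among the 29 vessel genes whose mean reached the 60th percentile of all probes, 8.48. Of the 7413 such genes on the array, 11.5% were higher at that p and 5.85% were higher without overlap, so the shares over all genes are a low yardstick. After Benjamini-Hochberg adjustment over all 16593 genes by limma, 0 of the 37 passed 0.05, as did 0% of all genes, so no single gene is called here. The number called depends on the fit. Limma with an intensity trend and a robust prior called 1 of them, Aqp1, and the other fits are given in the last section.

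The 6 genes whose groups did not overlap were Aqp1, Flt1, Tek, Ptprb, Pecam1 and Mmrn2. The median difference was 0.087 without control muscle 4 and spermine oxidase muscle 1 together, with 32 of 37 genes higher, among them Efnb2, while Emcn and Rgs5 were then lower. It was 0.073 without spermine oxidase muscle 1 alone and 0.071 without control muscle 1 alone. The count with an unadjusted p under 0.05 was 5 without spermine oxidase muscle 3, and the count without overlap was 12 without spermine oxidase muscle 2, whose mean over the genes was the lowest of its group. Leaving out a muscle makes separation easier by itself.

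**Figure D1:**
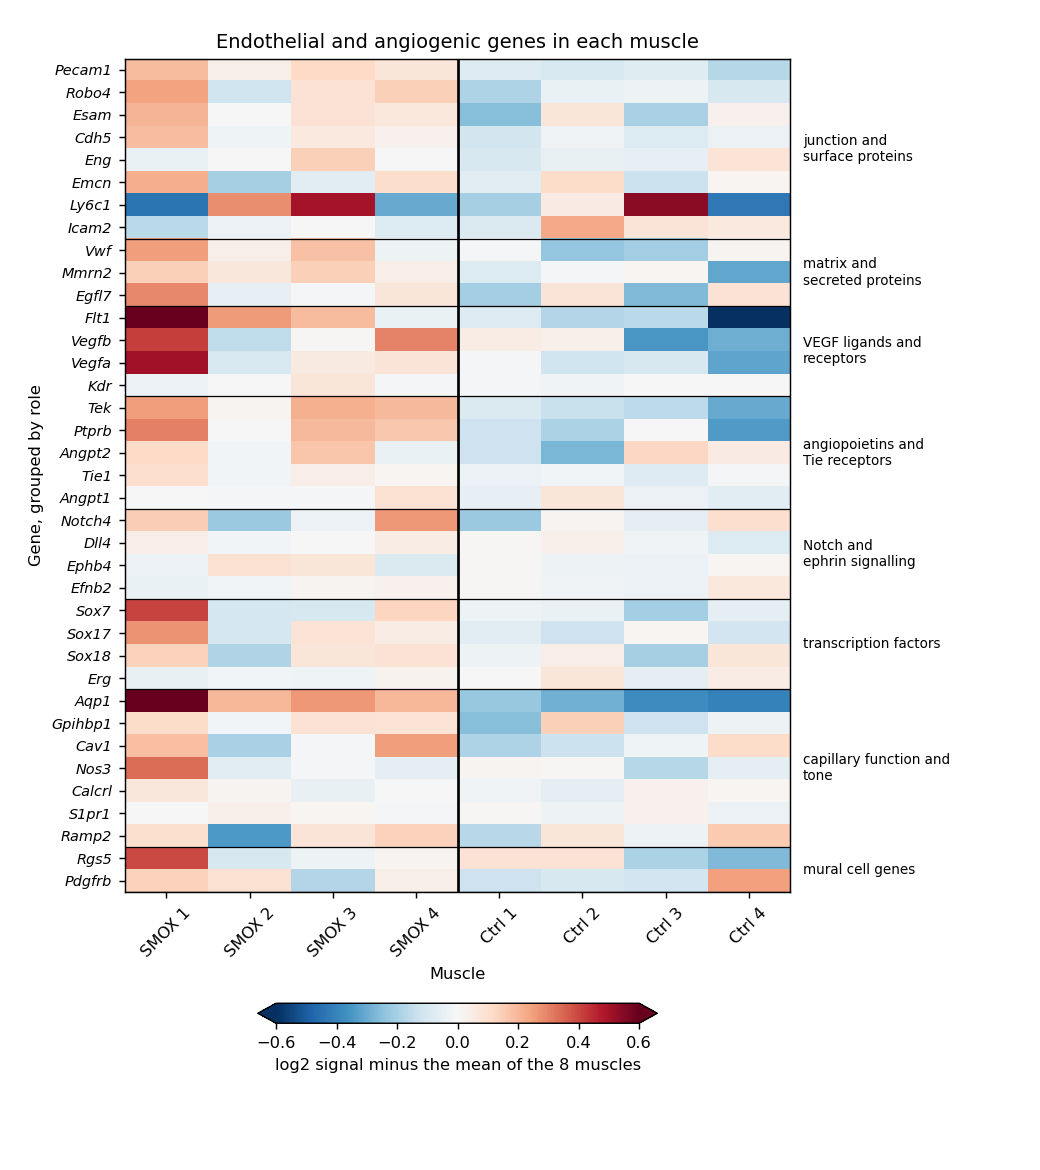
Log2 signal of the 37 vessel genes (rows, grouped by role) in each of the 8 muscles (columns, SMOX for spermine oxidase and Ctrl for control), as the difference from the gene's mean over the 8 muscles; colours are capped at ±0.6. Spermine oxidase muscle 1 is the highest muscle for 21 of the 37 genes, while Ly6c1 runs high in muscles 2 and 3 of the spermine oxidase group and muscle 3 of the control group.

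RefSeq promoter sequences were at hand for 20 of the 37 genes, among them 3 of the 6 that separated the groups, and these are shown because they are the ones of those 6 with an entry. Each is the 250 bases before the RefSeq start in mouse build GRCm38.p6, 5′ to 3′ in the direction of the gene, with capitals marking GGAA or its reverse complement TTCC, the core recognised by ETS factors such as the product of Erg. The Aqp1 window is chr6:55336049-55336298 on the plus strand, the Tek window chr4:94739039-94739288 on the plus strand and the Flt1 window chr5:147726012-147726261 on the minus strand.
Aqp1: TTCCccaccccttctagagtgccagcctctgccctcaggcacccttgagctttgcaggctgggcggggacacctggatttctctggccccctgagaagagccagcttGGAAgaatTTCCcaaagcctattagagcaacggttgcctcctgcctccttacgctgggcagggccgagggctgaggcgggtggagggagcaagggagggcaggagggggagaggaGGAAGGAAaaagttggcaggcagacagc
Tek: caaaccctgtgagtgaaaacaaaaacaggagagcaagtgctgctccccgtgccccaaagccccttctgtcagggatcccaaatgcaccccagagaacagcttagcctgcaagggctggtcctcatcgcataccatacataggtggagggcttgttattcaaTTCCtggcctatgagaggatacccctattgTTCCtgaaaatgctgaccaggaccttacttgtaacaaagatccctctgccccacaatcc
Flt1: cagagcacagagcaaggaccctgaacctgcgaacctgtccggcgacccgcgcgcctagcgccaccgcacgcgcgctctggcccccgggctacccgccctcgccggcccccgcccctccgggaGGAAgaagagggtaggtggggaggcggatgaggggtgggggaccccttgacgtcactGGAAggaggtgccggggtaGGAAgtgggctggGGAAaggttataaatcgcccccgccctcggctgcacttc
The core occurs 5 times in the Aqp1 window, 2 times in that of Tek and 4 times in that of Flt1. It is common, since 93.4% of all 32851 promoter windows of this length hold it on either strand, with a median of 3 copies. The longer GGAAGT, or ACTTCC on the other strand, is in the Flt1 window and in neither of the others, and was found in 8 of the 27 windows of the vessel genes (29.6%) and in 19.7% of all windows. ACAAT or its reverse complement ATTGT, a core bound by SOX factors such as those of Sox7, Sox17 and Sox18, was present 2 times in the Tek window and absent from the others. It was in 7 of the 27 windows (25.9%) and in 27.7% of all. ACGTG or CACGT, a form of the hypoxia response element core, was in none of the 3 windows shown, in 2 of the 27 (7.41%) and in 16.6% of all. Other forms of that core were not counted, so the windows may hold them. These are matches of letters, and some genes have several windows.

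The VEGF ligands and their receptors had the largest median difference of the roles, 0.28 over 4 genes. All 4 had a higher mean, though Kdr lay near the floor and says little. Their mean difference was 0.27 with all muscles and 0.13 without control muscle 4 and spermine oxidase muscle 1. Without those muscles the mean difference was 0.15 for the matrix and secreted proteins and 0.14 for the angiopoietins and Tie receptors. The VEGF genes thus did not have the largest mean in that setting. Flt1 encodes VEGF receptor 1, which binds VEGF-A and VEGF-B tightly and also exists as a soluble decoy. Flt1 read 11.28, 10.92, 10.86 and 10.62 in spermine oxidase muscles 1 to 4, against 10.59, 10.49, 10.50 and 10.06 in control muscles 1 to 4. The lowest spermine oxidase muscle lay 0.035 above the highest control muscle, so the groups barely separated. Its difference was 0.51 ± 0.16, a 1.42-fold higher signal (adjusted p = 0.317), and 0.27 without control muscle 4 and spermine oxidase muscle 1. A dimmer Flt1 probe near the floor differed by 0.068 ± 0.041 with overlap.

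Vegfa encodes the main VEGF that fibres secrete. Vegfa read 11.92, 11.33, 11.47 and 11.50 in spermine oxidase muscles 1 to 4, against 11.41, 11.30, 11.32 and 11.10 in control muscles 1 to 4. Each numbered spermine oxidase muscle was above the control muscle of the same number, but the groups overlapped, and spermine oxidase muscle 1 lay far above the rest. The difference of 0.27 ± 0.13 (adjusted p = 0.505) was 0.15 without that muscle and 0.087 without control muscle 4 as well. A second probe above the dim range differed by 0.11 ± 0.11 and another, at the floor, by -0.011 ± 0.019.

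Vegfb, whose product binds the Flt1 receptor, showed no separation. Vegfb had signals of 12.47, 11.90, 12.06 and 12.35 in spermine oxidase muscles 1 to 4, against 12.10, 12.08, 11.70 and 11.76 in control muscles 1 to 4. Spermine oxidase muscles 1 and 4 were above every control muscle and muscles 2 and 3 lay within the control range, and the difference was 0.28 ± 0.15 (adjusted p = 0.550). Kdr, the main signalling receptor for VEGF-A, could not be followed on this array. Kdr read 8.26, 8.29, 8.36 and 8.28 in spermine oxidase muscles 1 to 4, against 8.28, 8.27, 8.29 and 8.29 in control muscles 1 to 4. All 8 values are near the floor, and the difference of 0.015 ± 0.025 (95% interval -0.043 to 0.073) says little about the mRNA.

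The angiopoietin system had both of its clearest differences on the receptor side. Tek encodes the receptor Tie2. Tek read 9.88, 9.64, 9.84 and 9.82 in spermine oxidase muscles 1 to 4, against 9.54, 9.49, 9.47 and 9.32 in control muscles 1 to 4. All 4 spermine oxidase muscles were above all 4 control muscles by at least 0.10, and the difference was 0.34 ± 0.063, or 1.27-fold (adjusted p = 0.179). It was 0.27, again without overlap, when control muscle 4 and spermine oxidase muscle 1 were left out.

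Ptprb encodes VE-PTP, an endothelial phosphatase that acts on Tie2 and on VE-cadherin. Ptprb gave 10.08, 9.78, 9.97 and 9.94 in spermine oxidase muscles 1 to 4, against 9.65, 9.59, 9.77 and 9.44 in control muscles 1 to 4. The groups separated by only 0.0016, with spermine oxidase muscle 2 next to control muscle 3. Its difference was 0.33 ± 0.084 (adjusted p = 0.252), and 0.22 without control muscle 4 and spermine oxidase muscle 1. Tie1, a related receptor that modifies Tie2 signalling, lay just above the dim range. Tie1 read 8.66, 8.54, 8.60 and 8.57 in spermine oxidase muscles 1 to 4, against 8.52, 8.54, 8.48 and 8.55 in control muscles 1 to 4. Spermine oxidase muscle 2 lay below control muscle 4, so the groups overlapped, and the difference was 0.067 ± 0.029 (adjusted p = 0.448).

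The ligands differed less. Angpt1 encodes the angiopoietin that activates Tie2 and Angpt2 the mostly antagonistic form made by endothelium itself. Angpt1 read 8.47, 8.46, 8.46 and 8.56 in spermine oxidase muscles 1 to 4, against 8.41, 8.54, 8.43 and 8.40 in control muscles 1 to 4. Angpt2 read 9.35, 9.21, 9.40 and 9.19 in spermine oxidase muscles 1 to 4, against 9.11, 8.96, 9.35 and 9.28 in control muscles 1 to 4. Both overlapped between the groups, with differences of 0.041 ± 0.038 for Angpt1, a dim gene, and 0.11 ± 0.092 for Angpt2 (adjusted p = 0.753 and 0.718). The 95% intervals ran from -0.046 to 0.13 and from -0.099 to 0.33.

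**Figure D2:**
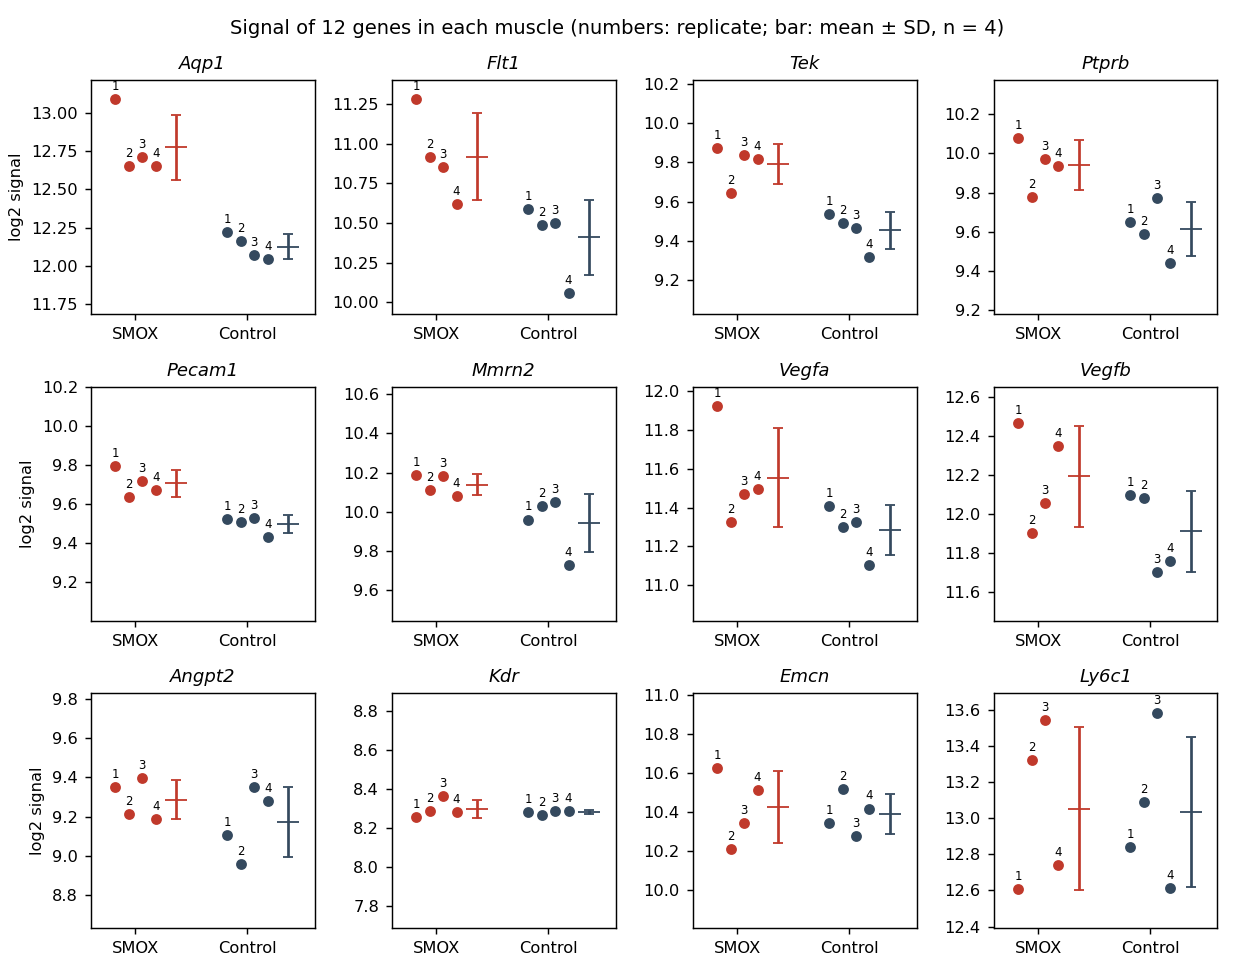
Log2 signal of 12 vessel genes in each muscle, with the spermine oxidase (SMOX) muscles left and the control muscles right in each panel; small numbers are replicate numbers and bars show the mean ± SD (n = 4). Each panel has its own axis range, and the groups are apart in the panels of Aqp1, Flt1, Tek, Ptprb, Pecam1 and Mmrn2 and overlap in the other 6.

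Among the genes of capillary function, Aqp1 differed most, and more than any other vessel gene. It encodes a water channel of capillary endothelium that red blood cells carry too. Aqp1 read 13.09, 12.65, 12.71 and 12.65 in spermine oxidase muscles 1 to 4, against 12.22, 12.16, 12.07 and 12.05 in control muscles 1 to 4. The lowest spermine oxidase muscle was 0.43 above the highest control muscle. The difference was 0.65 ± 0.10, a 1.57-fold higher signal (adjusted p = 0.179, place 21 of all genes by p). Both dimmer probes gave the same picture, with differences of 0.71 ± 0.17 and 0.59 ± 0.15 and no overlap on either. Without control muscle 4 and spermine oxidase muscle 1 the difference was 0.52.

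Of the markers of red blood cells, 3 of 5 measured were higher, Hba-a1 (an alpha globin) by 0.71 ± 0.21 and Hbb-bt (a beta globin) by 0.47 ± 0.21, both with overlap. Hbb-b2 and Slc4a1, named after their values were seen, were dim and differed by -0.018 ± 0.025 and -0.0071 ± 0.032. The mean signal of these 5 markers ranged from 9.37 to 9.77 in spermine oxidase muscles and 9.16 to 9.48 in control muscles, and Alas2, a heme synthesis gene of red cells, averaged 8.51 in spermine oxidase muscles and 8.42 in control muscles, near the floor. Aqp1 was highest in spermine oxidase muscle 1 and the mean of the red cell markers in spermine oxidase muscle 3. Both were lowest in control muscle 4. The part of red blood cells in the Aqp1 result was not tested.

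The other genes of capillary function differed little, with a median of 0.10 over all 7. Gpihbp1, which carries lipoprotein lipase to the capillary lumen, averaged 9.90 ± 0.06 in spermine oxidase muscles and 9.77 ± 0.17 in control muscles. Nos3, the endothelial nitric oxide synthase, averaged 8.93 ± 0.19 in spermine oxidase muscles and 8.83 ± 0.09 in control muscles, and its difference of 0.10 was 0.0081 without spermine oxidase muscle 1. Cav1, the caveola protein shared with adipocytes and smooth muscle, differed by 0.11 ± 0.11. Ramp2 and Calcrl together form the receptor for adrenomedullin. Ramp2 differed by -0.018 ± 0.12 and Calcrl, at the floor, by 0.020 ± 0.029. S1pr1, the endothelial receptor for sphingosine 1-phosphate, also lay at the floor (0.018 ± 0.020).

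Of the genes for junction and surface proteins, 7 of the 8 measured were higher, by a median of 0.089, and Pecam1 separated the groups. Pecam1 encodes CD31, the adhesion molecule most used to mark endothelium. Pecam1 read 9.79, 9.64, 9.72 and 9.67 in spermine oxidase muscles 1 to 4, against 9.53, 9.51, 9.53 and 9.43 in control muscles 1 to 4. The spread within either group was small, and all 4 spermine oxidase muscles were at least 0.11 above the control muscles. The difference of 0.21 ± 0.039 is 1.16-fold (adjusted p = 0.179). Its second probe differed by 0.10 ± 0.023, also without overlap.

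Cdh5 encodes VE-cadherin, the endothelial adherens junction protein. Cdh5 read 9.12, 8.91, 8.99 and 8.96 in spermine oxidase muscles 1 to 4, against 8.82, 8.91, 8.85 and 8.90 in control muscles 1 to 4. Only spermine oxidase muscle 2 fell within the control range, below control muscle 2 by 0.0044, and the difference was 0.12 ± 0.045 (adjusted p = 0.382). Robo4 encodes an endothelial receptor that limits leakiness. Robo4 read 10.97, 10.61, 10.82 and 10.87 in spermine oxidase muscles 1 to 4, against 10.55, 10.69, 10.70 and 10.63 in control muscles 1 to 4. Here too spermine oxidase muscle 2 lay within the control range while the other 3 lay above it, with a difference of 0.18 ± 0.076 (adjusted p = 0.453). Both dimmer Robo4 probes lay at the floor and did not carry the difference (-0.0036 ± 0.041 and -0.0053 ± 0.024).

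Esam, an adhesion molecule of endothelial tight junctions, was more scattered among controls. Esam read 11.54, 11.33, 11.42 and 11.40 in spermine oxidase muscles 1 to 4, against 11.08, 11.41, 11.14 and 11.36 in control muscles 1 to 4. The groups overlapped and the difference was 0.17 ± 0.082 (adjusted p = 0.505). The TGF-beta co-receptor gene Eng differed by 0.054 ± 0.050 and Emcn, which encodes an endothelial sialomucin, by 0.034 ± 0.094. Icam2, whose product binds leukocytes at the vessel wall, ran the other way, at 9.78 ± 0.07 in spermine oxidase muscles and 9.91 ± 0.13 in control muscles. Its spermine oxidase muscle was below the control muscle of the same number for all 4 numbers, the groups overlapped, and the difference was -0.14 ± 0.066 (adjusted p = 0.520).

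Ly6c1 varied more between muscles than any other vessel gene, within both groups. It encodes a surface protein of capillary endothelium that some lymphocytes and monocytes also carry. Ly6c1 read 12.61, 13.32, 13.54 and 12.74 in spermine oxidase muscles 1 to 4, against 12.84, 13.09, 13.58 and 12.61 in control muscles 1 to 4. The means were almost equal, and the 95% interval of the difference, -0.61 to 0.65, is the widest of the 37. The mean signal of 7 lymphocyte markers was 8.54, 8.86, 8.82 and 8.59 in spermine oxidase muscles 1 to 4, against 8.68, 8.74, 8.96 and 8.62 in control muscles 1 to 4. Spermine oxidase muscles 2 and 3 and control muscles 2 and 3 were the 4 highest by both measures, and the part of lymphocytes in the Ly6c1 signal was not tested.

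All 3 genes for matrix and secreted proteins were higher, by a median of 0.20. Mmrn2 encodes a glycoprotein of the endothelial matrix. Mmrn2 read 10.19, 10.11, 10.18 and 10.08 in spermine oxidase muscles 1 to 4, against 9.96, 10.03, 10.05 and 9.73 in control muscles 1 to 4. The groups separated by 0.026, and control muscle 4 lay well below the other controls. The difference of 0.20 ± 0.071 (adjusted p = 0.377) was 0.12 without that muscle, still without overlap. Vwf encodes von Willebrand factor, the clotting protein stored in endothelium. Vwf read 10.11, 9.89, 10.03 and 9.83 in spermine oxidase muscles 1 to 4, against 9.85, 9.63, 9.65 and 9.87 in control muscles 1 to 4. Spermine oxidase muscle 4 lay below control muscles 1 and 4, and the difference was 0.22 ± 0.082 (adjusted p = 0.389). Egfl7, a secreted endothelial factor, differed by 0.15 ± 0.11 with overlap, and by 0.069 ± 0.096 and 0.0023 ± 0.024 on its dimmer probes.

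None of the 4 transcription factor genes separated the groups, which few genes did (3.66% of all genes with spermine oxidase higher and 2.51% lower). The SOXF genes Sox7, Sox17 and Sox18, which specify endothelium and arteries, differed by 0.17 ± 0.11, 0.14 ± 0.075 and 0.059 ± 0.084. The first of these was 0.059 and the Sox17 difference 0.078 without spermine oxidase muscle 1. The Sox18 difference was 0.023 without that muscle and 0.0026 without control muscle 3. Erg, an ETS factor that maintains endothelial identity, was dim and differed by -0.035 ± 0.030.

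Notch and ephrin genes, which set arterial and venous identity and sprouting, differed least of the endothelial roles, with a median of 0.028. Notch4, an endothelial Notch receptor, averaged 10.04 ± 0.21 in spermine oxidase muscles and 9.96 ± 0.14 in control muscles (difference 0.078 ± 0.11). That difference was 0.0039 without spermine oxidase muscle 4 and 0.16 without muscle 2 of that group. The Notch ligand gene Dll4, the arterial Efnb2 and the venous Ephb4 were all dim, and their differences were 0.032 ± 0.029, -0.0081 ± 0.027 and 0.024 ± 0.041. In all, 8 of the 37 genes were dim, meaning that their mean lay under the 60th percentile of all probes, 8.48, and their differences ran from -0.035 to 0.041. The 29 brighter genes, 27 of them higher, had a median of 0.14, against -0.0085 over the 7413 brighter genes of the array, of which 47.1% were higher.

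The genes of mural cells, the pericytes and smooth muscle around vessels, did not separate the groups, as was so for most genes of the array. Rgs5, a pericyte regulator of G protein signalling, differed by 0.14 ± 0.13 and by 0.033 without spermine oxidase muscle 1. Pdgfrb, the receptor through which endothelium recruits pericytes, differed by 0.046 ± 0.10, by 0.0069 without spermine oxidase muscle 1 and by 0.13 without control muscle 4. Among 15 further pericyte and smooth muscle genes, 9 were higher, by a median of 0.067. With an unadjusted p under 0.05, 4 were higher and 0 lower (over all genes 49.2% were higher, and 6.33% higher and 4.72% lower at that p), among them Kcnj8, a pericyte potassium channel gene (0.25 ± 0.070), and the smooth muscle genes Lmod1 (0.075 ± 0.026, dim) and Myh11 (0.28 ± 0.10), with limma adjusted p-values of 0.272, 0.365 and 0.378. Without overlap, 3 of the 15 were higher and 0 lower, where 3.66% and 2.51% of all genes were. These 3 were Kcnj8, Myh11 and Tagln (0.067 ± 0.027, dim, named after its values were seen). Of the 15, 6 were lower and include, named after their values were seen, the smooth muscle actin gene Acta2 (-0.38 ± 0.17, lower for all 4 numbers), Anpep (-0.24 ± 0.20) and Smtn (-0.13 ± 0.12).

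**Figure D3:**
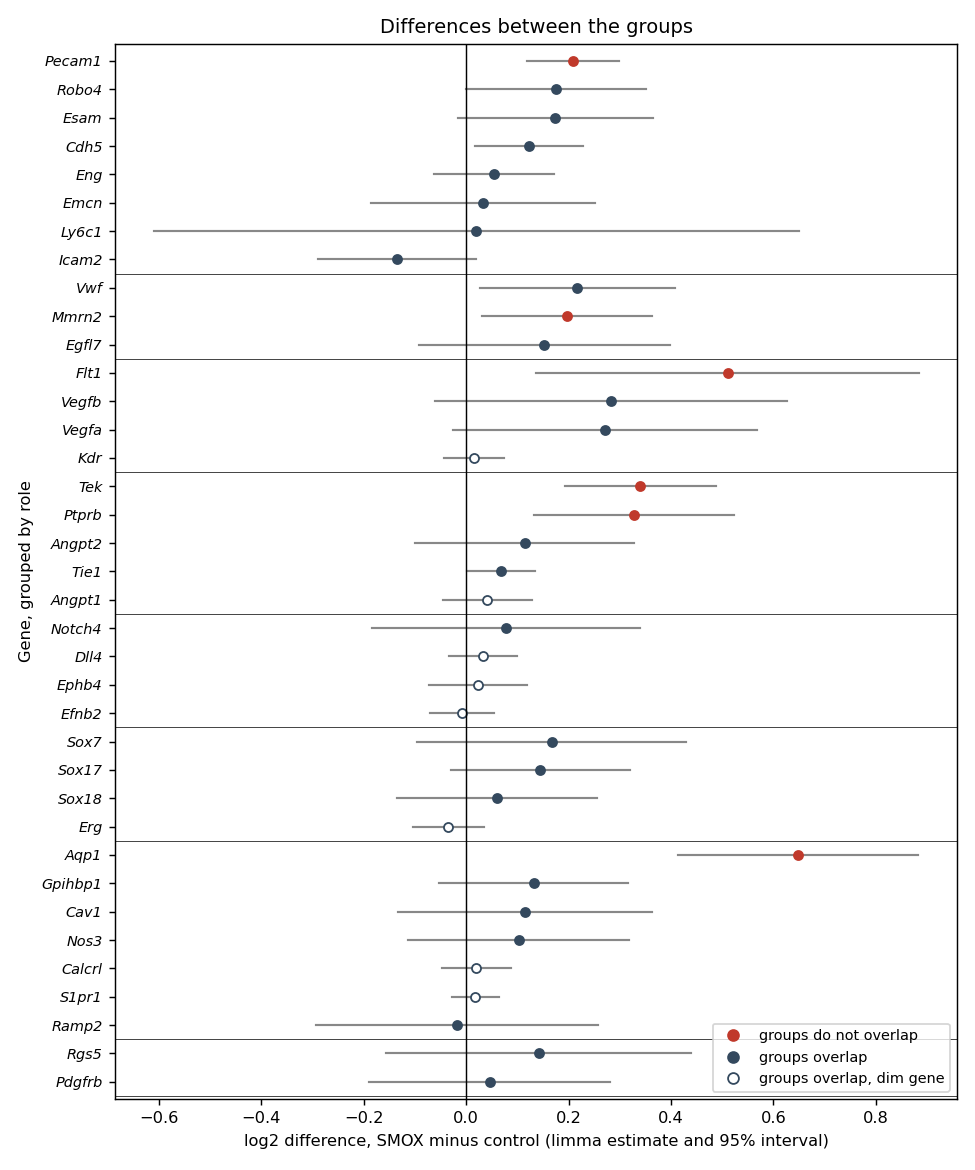
Difference between spermine oxidase (SMOX) and control muscles for each of the 37 vessel genes, grouped by role, with its 95% interval from limma; red points mark the 6 genes whose groups do not overlap and open points the 8 dim genes. All but 4 points lie right of 0, and dim genes sit close to it.

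A two-sided exact permutation test, which runs through all 70 ways to divide the 8 muscles, gave p = 0.0286 for each of the 6 genes whose groups did not overlap, and no split can give a smaller value. Any gene whose groups do not overlap gives this value, so it restates the separation and adds no evidence. The same test gave an exact p = 0.0571 for Cdh5, Tie1 and Vegfa, and 0.114 for Vwf and Robo4. These values are not adjusted for the number of genes.

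Sample names carry a number from 1 to 4 within each group, and nothing says that equal numbers mark 1 mouse. Set side by side by number, 30 of the 37 genes were higher in the spermine oxidase muscle for number 1, 19 for number 2, 32 for number 3 and 25 for number 4. The median differences were 0.27, 0.00094, 0.11 and 0.096. The median was largest for number 1 and near 0 for number 2, where genes went both ways, from -0.42 for Ramp2 to 0.49 for Aqp1. The Smox differences of the same numbers were 1.43, 0.64, 1.12 and 1.44. In all, 9 genes (24.3%) were higher for all 4 numbers, where 11.3% of all genes were: Aqp1, Flt1, Tek, Ptprb, Pecam1, Mmrn2, Tie1, Vegfa and Sox17.

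Genes with related roles outside the 38 did not all follow. Of 26 other measured endothelial genes, 12 were higher, with a median difference of -0.0039, 1 higher and 1 lower at an unadjusted p under 0.05, and 11 of them dim (over all genes 49.2% were higher, and 6.33% higher and 4.72% lower at that p). Ets2, an ETS factor gene, was higher without overlap (0.15 ± 0.042, limma adjusted p = 0.268), Clec14a, a dim endothelial lectin gene, was lower without overlap (-0.047 ± 0.018, limma adjusted p = 0.394), and Podxl, a sialomucin gene, differed by 0.12 ± 0.057. The list went both ways. Further genes of it, named after their values were seen, were Adgrl4 (0.23 ± 0.13), Thbd (0.086 ± 0.088), Esm1 (0.048 ± 0.066), Cd34 (0.0063 ± 0.089), Cd93 (-0.100 ± 0.14), Plvap (-0.10 ± 0.090), Klf2 (-0.082 ± 0.11) and Aplnr (-0.14 ± 0.12). Also named after their values were seen, Mcam had the largest fall of the list (-0.17 ± 0.088, lower for all 4 numbers). Apln, a dim gene, was lower without overlap (-0.031 ± 0.017). In the list 1 gene was higher and 2 were lower without overlap, where 3.66% and 2.51% of all genes were. A test of the difference between the 26 genes and the 37 was not made.

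The wider pathway lists also had medians near 0. Over all genes 49.2% were higher, and 3.66% were higher without overlap. Dim genes, whose differences are understated, made up 9 of 18, 11 of 22 and 3 of 6 of these lists in the order below. Of 18 other VEGF and growth factor genes, 8 were higher (median -0.0038), with the fibroblast growth factor gene Fgf1 at 0.32 ± 0.13, Angptl4, an inhibitor of lipoprotein lipase, at -0.49 ± 0.21, and the VEGF co-receptor gene Nrp1 at -0.097 ± 0.046. Of 22 other Notch, ephrin and TGF-beta vessel genes, 10 were higher (median -0.0071). In that list Nrarp, a target and inhibitor of Notch, was higher without overlap (0.20 ± 0.051), and Id1 and Smad6 differed by -0.11 ± 0.050 and 0.096 ± 0.057. Of 6 lymphatic genes, 3 were higher (median 0.0097), with Reln at 0.15 ± 0.063, Pdpn at -0.30 ± 0.13 and Lyve1, a dim gene, at 0.082 ± 0.064. None of these genes passed the adjusted threshold in limma.

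A list of hypoxia response genes was also read, and its part in the Vegfa values was not tested. Of its 18 measured genes, 13 were higher (median 0.050), 4 higher and 1 lower at an unadjusted p under 0.05; over all genes 49.2% were higher, and 6.33% higher and 4.72% lower at that p. The collagen prolyl hydroxylase gene P4ha1 (0.24 ± 0.049) and the hexokinase gene Hk2 (0.32 ± 0.096) were higher without overlap, while the histone demethylase gene Kdm3a was lower without overlap (-0.21 ± 0.062), at limma adjusted p-values of 0.185, 0.292 and 0.301.

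Markers of the cell types in muscle were set beside these values, and none of their genes passed the adjusted threshold in limma. The 7 measured endothelial markers averaged 9.51 to 9.69 in spermine oxidase muscles and 9.43 to 9.52 in control muscles. All 7 had a higher mean, though Kdr lay near the floor and these markers belong to the 37. The mean signal of 10 fibre markers ranged from 14.70 to 14.78 in spermine oxidase muscles and 14.62 to 14.74 in control muscles, with 7 of 10 higher. Macrophage markers were higher in 3 of 8 cases (median -0.22), and their mean signal ranged from 10.62 to 11.04 in spermine oxidase muscles and 11.001 to 11.29 in control muscles. The lowest of these values was spermine oxidase muscle 1 and the highest control muscle 4, the same muscles that were highest and lowest for many vessel genes. The difference of the macrophage mean was -0.18 with all muscles and -0.012 without both. For the mean of the 37 vessel genes it was 0.13 with all muscles and 0.093 without both.

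Fibroblast markers were higher in 2 of 9 cases (median -0.20), with mean signals of 10.77 to 11.41 in spermine oxidase muscles and 10.97 to 11.54 in control muscles. The difference of their mean was -0.19 with all muscles and 0.0032 without control muscle 4 and spermine oxidase muscle 1. Tendon markers were higher in 7 of 8 cases without overlap of their mean (9.07 to 9.33 in spermine oxidase muscles and 8.73 to 9.01 in control muscles). Adipocyte markers were higher in 4 of 6 cases, 5 of the 6 being dim, with a mean of 8.50 to 8.57 in spermine oxidase muscles and 8.32 to 8.47 in control muscles. Schwann cell markers were higher in 2 of 3 cases and lymphocyte markers in 2 of 7. The part of these cell types in the vessel gene differences was not tested.

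**Figure D4:**
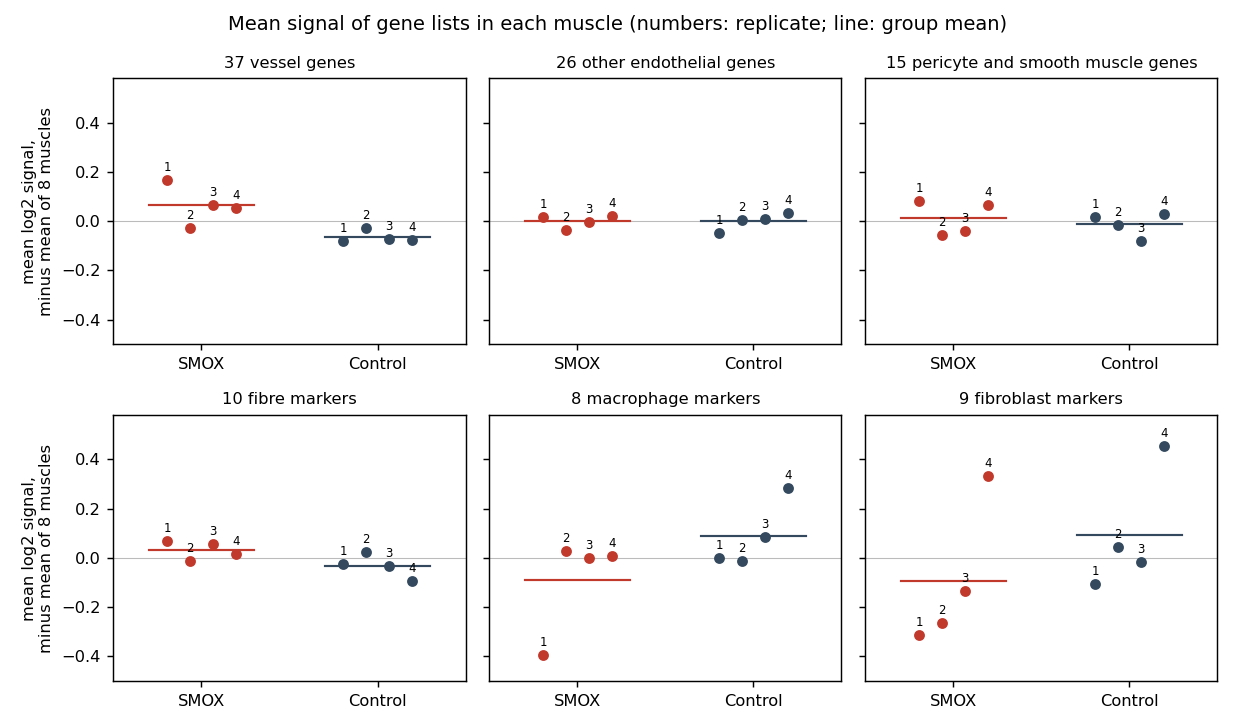
Mean log2 signal of 6 gene lists in each muscle, as the difference from its mean over the 8 muscles, with spermine oxidase (SMOX) muscles left and control muscles right; numbers are replicate numbers and lines are group means. The 37 vessel genes lie higher in the spermine oxidase muscles, with muscle 2 level with control muscle 2, while the 26 other endothelial genes do not differ visibly and the macrophage markers are lowest in spermine oxidase muscle 1.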

How the data were processed

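RNA from 8 tibialis anterior muscles was isolated (TRIzol, then RNeasy columns with DNase) and made into biotinylated cRNA, per the labels' protocols. The log2 values are those the authors deposited, and their distributions differ by at most 0.155 between arrays at any rank. How the authors normalized, and whether background was subtracted, is not given in the sources used here. Of 25697 probes, 23978 had a gene in the platform annotation and 1719 did not, and symbols were checked through RefSeq. Each gene was represented by its brightest probe over the 8 arrays. No filter on dim probes was applied.

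Groups came from the titles. Each gene's groups were set against each other by lmFit and eBayes of limma 3.58.1 (R 4.3.3, two-sided) without a replicate block, adjusted by Benjamini-Hochberg over all genes at 0.05. The fit was tried on simulated data with independent noise in each gene and muscle. Those data hold no effect shared by muscles, so they do not test the fit against one. Named are all 37 genes, up to 3 genes of each related list with the smallest p, and Smox. The exceptions are said in the text. Values per muscle are given for the 12 with the smallest p and for the VEGF and angiopoietin ligands and receptors. The members and lists were chosen with earlier results of these data known. Alternatives were the replicate block, 3 other normalizations, 2 dim-probe filters, the mean of a gene's probes, another prior, array weights (statmod 1.5.0), an offset of 16 and leaving out each muscle. Plots used matplotlib 3.10.9 in Python 3.11.15. RefSeq promoter windows come from build GRCm38.p6.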

Additional observations from a re-analysis of the deposited data

Results flagged for a closer look

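In 5 of the 74 groups of 4 muscles examined, over the 37 vessel genes, 1 muscle lay far from the other 3, by Dixon's test of the gap to the nearest muscle over the group's range at its 95% critical value. About 1 group in 20 is expected to do so by chance. Aqp1 read 13.09 in spermine oxidase muscle 1, against 12.65 to 12.71 in the other 3 of the group. Nos3 in the same muscle read 9.22, against 8.82 to 8.87. Ramp2 read 11.20 in spermine oxidase muscle 2, against 11.62 to 11.68. Angpt1, a dim gene, read 8.56 in spermine oxidase muscle 4, against 8.46 to 8.47. Pdgfrb read 9.22 in control muscle 4, against 8.85 to 8.88.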

How the results depend on the processing

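Under the 19 other settings run, 671 of 691 single-gene comparisons of the vessel genes kept their direction and their side of the adjusted threshold, 3 newly passed it, and 17 changed sign, in 7 genes, while 30 genes never changed sign. With the replicate number as a block, 2 of the vessel genes passed the adjusted threshold in limma (Aqp1, adjusted p = 0.0274, and Flt1, 0.0369), with 266 of all genes. Deviations from the group means correlated between muscles of the same number at 0.60, -0.14, 0.67 and 0.60. The main fit took no block because no label pairs the muscles, and the number of genes that pass depends on that choice. Whether equal numbers share a mouse or a batch was not tested. With an intensity trend and a robust prior, 1 vessel gene (Aqp1, adjusted p = 0.0351) and 8 of all genes passed. With the mean of a gene's probes the median difference was 0.067, below every leave-one-out value. With the offset of 16 the median difference was 0.187 and 1 gene of all passed. Array weights gave Efnb2 0.0044. Without control muscle 4 and spermine oxidase muscle 1 together, a setting added after seeing the data, Emcn was -0.025, Efnb2 0.023 and Rgs5 -0.032. With each muscle left out in turn, 31 to 34 vessel genes were higher, 5 to 13 had an unadjusted p under 0.05, 6 to 12 separated the groups, the median was 0.071 to 0.152, 0 to 0 passed the adjusted threshold, and 0 to 14 of all genes did, with 14 without spermine oxidase muscle 2. The ranges that crossed 0 were Kdr -0.0072 to 0.029, Emcn -0.034 to 0.105, Ramp2 -0.076 to 0.094, Efnb2 -0.021 to 0.012, Ephb4 -0.0031 to 0.056 and Ly6c1 -0.144 to 0.203. The causes were not tested. Signals near the floor limit what can be read of the 8 dim genes.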
